A study of Mus musculus with 32 samples.

Results

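Pax9, Msx1, Barx1, Osr1, Osr2, Shox2, Meox1 and Meox2 encode transcription factors of the mesenchyme that forms teeth and the secondary palate. They were picked by gene symbol in the platform annotation, which held all 8, and they are 8 of the 13705 genes tested. The array carried 14 probe sets for them, of which 13 passed the filter on low values, and each gene had at least 1 that passed. Levels were followed over all 8 groups of embryonic jaw tissue, as log2 values.

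The mesenchyme of the jaws comes from the cranial neural crest, and these factors divide it into domains before teeth and palatal shelves take shape. Pax9 and Msx1 act together in dental mesenchyme, where Msx1 is needed to keep Bmp4 on, and the loss of either arrests mouse teeth at the bud stage and clefts the palate. Barx1 marks the proximal, molar-forming mesenchyme of the mouse jaw, while Msx1 is stronger at the distal, incisor-forming end. Osr1 and Osr2 are odd-skipped zinc finger proteins, and Osr2 is required for palatal shelf growth and holds back tooth formation on the lingual side of the molars. Shox2 is a homeodomain factor of the anterior palate, Meox2 is a homeodomain factor of the posterior palate, and Meox1 is its paralog, best known from the somites.

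RNA was measured on 32 Affymetrix whole-genome mouse arrays in C57B6 embryos at embryonic day 13.5. Mutants, labelled Alk5 Knockout, came from crosses of Wnt1cre;Alk5fl/+ with Alk5fl/fl mice and were picked out by a cleft palate and a defect of the calvaria. Alk5, gene symbol Tgfbr1, is a type I receptor of the TGF-beta pathway. The Wnt1cre transgene removes it in neural crest cells and their descendants, while epithelium, skeletal muscle and the endothelium of blood vessels keep it. Controls were littermates whose alleles are not given in the sources used here. The groups were mutant and control distal mandible, mutant and control proximal mandible, mutant and control distal maxilla, and mutant and control proximal maxilla, with 4 arrays in each, numbered 1 to 4. The labels do not say whether the numbers are separate embryos. A p-value here therefore speaks only of how far arrays within groups scatter, and that scatter may be technical. The main fit pooled this scatter over all groups, including those not compared. In pieces of whole tissue, fewer cells of a type and less RNA per cell cannot be told apart.

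Array medians lay between 7.35 and 7.49, and arrays of a group correlated at 0.926 to 0.997 over all genes tested. The Cre spike-in, a control added to every array, read 13.77 to 14.02 on the arrays of number 1. It read 12.56 to 13.35 on the other numbers, and what set number 1 apart was not tested. The Tgfbr1 level was 12.80 to 13.32 on mutant arrays, against 12.55 to 12.82 on control arrays. Its other probe sets differed by 0.12 to 0.79 and by 0.21 to 1.39 over the regions, mutant minus control, with overlapping arrays. None of them was lower in mutants. A probe set outside the deleted part of the gene does not check the deletion, and where these lie was not tested. Xist, the transcript of the inactive X chromosome, stood at 13.34 to 14.06 on the arrays of mutant number 1 and control number 2. Control number 3 had 9.69 in the distal and 10.72 in the proximal maxilla, but 6.70 and 6.84 in the distal and proximal mandible. All other arrays had 6.38 to 6.96, and what set control number 3 of the maxilla apart was not tested. Control distal mandible array 3 had a Gapdh 3' minus 5' difference of 2.23, against −0.18 to 0.12 on all other arrays, a sign of shorter RNA. All 6 mandible markers (Hand1, Hand2, Dlx3, Dlx4, Dlx5, Dlx6) lay above 0 in each of the 4 differences between mandible and maxilla, and 2 to 5 of them passed the test. The maxilla markers Pou3f3 and Pantr1 did not separate the jaws, with 0 of 2 passing in each of the 4.

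The ends of the maxilla were less clear. Genes that separated the distal from the proximal mandible in both genotypes, with the 8 factors left out, were summed into a score of 104 distal and 153 proximal genes. The distal minus proximal score of an array pair was 1.95 to 2.60 in the mandible, a size fixed in advance by how the genes were chosen. In the maxilla it was 0.26 to 0.88 for 6 of the 8 pairs, but −0.89 for mutant number 4 and −0.87 for control number 2. Whether the genes of the score order the ends of the maxilla was not shown, since 0 genes passed between those ends in either genotype. By this score alone, these 4 arrays go against their end label. The maxilla results that the text turns on are therefore given with all arrays and also without these 4, an alternative added after the data were seen. The average over regions, which needs every region of a number, and the marker and partner lists are given with all arrays only.

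The 250 bases before the start were taken from RefSeq (GRCm38.p6) for the genes among the 8 that passed a test below and have an entry there; 5 of the 8 genes have one, and Osr1, Osr2 and Meox1 are named only. They are shown because these are the promoters of transcripts that differed between genotypes, jaws or ends. Each runs 5′ to 3′ on the gene's own strand, and capitals mark a TATA box motif (TATAAA). Shox2 lies at chr3:66981772-66982021 on the minus strand, Barx1 at chr13:48662786-48663035 on the plus strand, and Pax9 at chr12:56695221-56695470 on the plus strand.
Shox2: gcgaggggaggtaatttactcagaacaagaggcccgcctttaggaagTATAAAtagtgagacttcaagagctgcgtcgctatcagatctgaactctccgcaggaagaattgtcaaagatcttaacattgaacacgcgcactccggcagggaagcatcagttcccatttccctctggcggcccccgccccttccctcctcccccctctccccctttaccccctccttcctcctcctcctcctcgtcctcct
Barx1: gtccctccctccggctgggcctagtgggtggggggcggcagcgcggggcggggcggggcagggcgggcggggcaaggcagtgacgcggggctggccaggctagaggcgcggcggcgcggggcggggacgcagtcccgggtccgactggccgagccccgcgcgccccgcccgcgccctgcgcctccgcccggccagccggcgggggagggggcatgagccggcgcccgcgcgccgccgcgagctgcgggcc
Pax9: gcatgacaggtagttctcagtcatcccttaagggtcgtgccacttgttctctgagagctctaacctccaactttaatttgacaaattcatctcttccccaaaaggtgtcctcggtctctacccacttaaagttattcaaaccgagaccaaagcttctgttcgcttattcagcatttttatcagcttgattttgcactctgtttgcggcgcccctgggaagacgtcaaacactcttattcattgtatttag
The TATAAA of Shox2 starts 203 bases before the start, and that of Meox2, on the other strand, lies 29 bases before it; 12.4% of 32851 promoters hold the motif on either strand. GC content was 85.6% for Barx1, 68.0% for Msx1, 62.0% for Meox2, 55.6% for Shox2 and 43.6% for Pax9, against a median of 52.4% over all entries. Neither a Smad core motif (CAGAC, in 42.2% of promoters) nor a homeodomain core motif (TAATTA, in 4.84%) was found on either strand of the 5 windows, and nothing follows from that about the factors.

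Each factor had its own order of levels over the groups. Meox2 spanned most, 3.83 on the log2 scale between the means of control proximal mandible (11.27) and mutant distal mandible (7.44). Barx1 spanned 2.52, Osr1 2.08, Shox2 2.04, Meox1 1.71, Osr2 1.66, Msx1 1.42 and Pax9 1.17. Most neighbours in these orders did not differ by more than the larger of their SDs. The steps that did were few. Barx1 had 1, separating the proximal mandible of both genotypes from all other groups. Meox2 had 2, which set control proximal mandible above the rest and mutant distal mandible below the rest. Osr1 and Osr2 each had 1, below which stood mutant distal maxilla for Osr1 and mutant distal mandible for Osr2. Shox2 had 1, with control proximal mandible on top. Pax9 had 1, between 3 of the 4 maxilla groups and the other groups. Meox1 and Msx1 had 0.

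**Figure D1:**
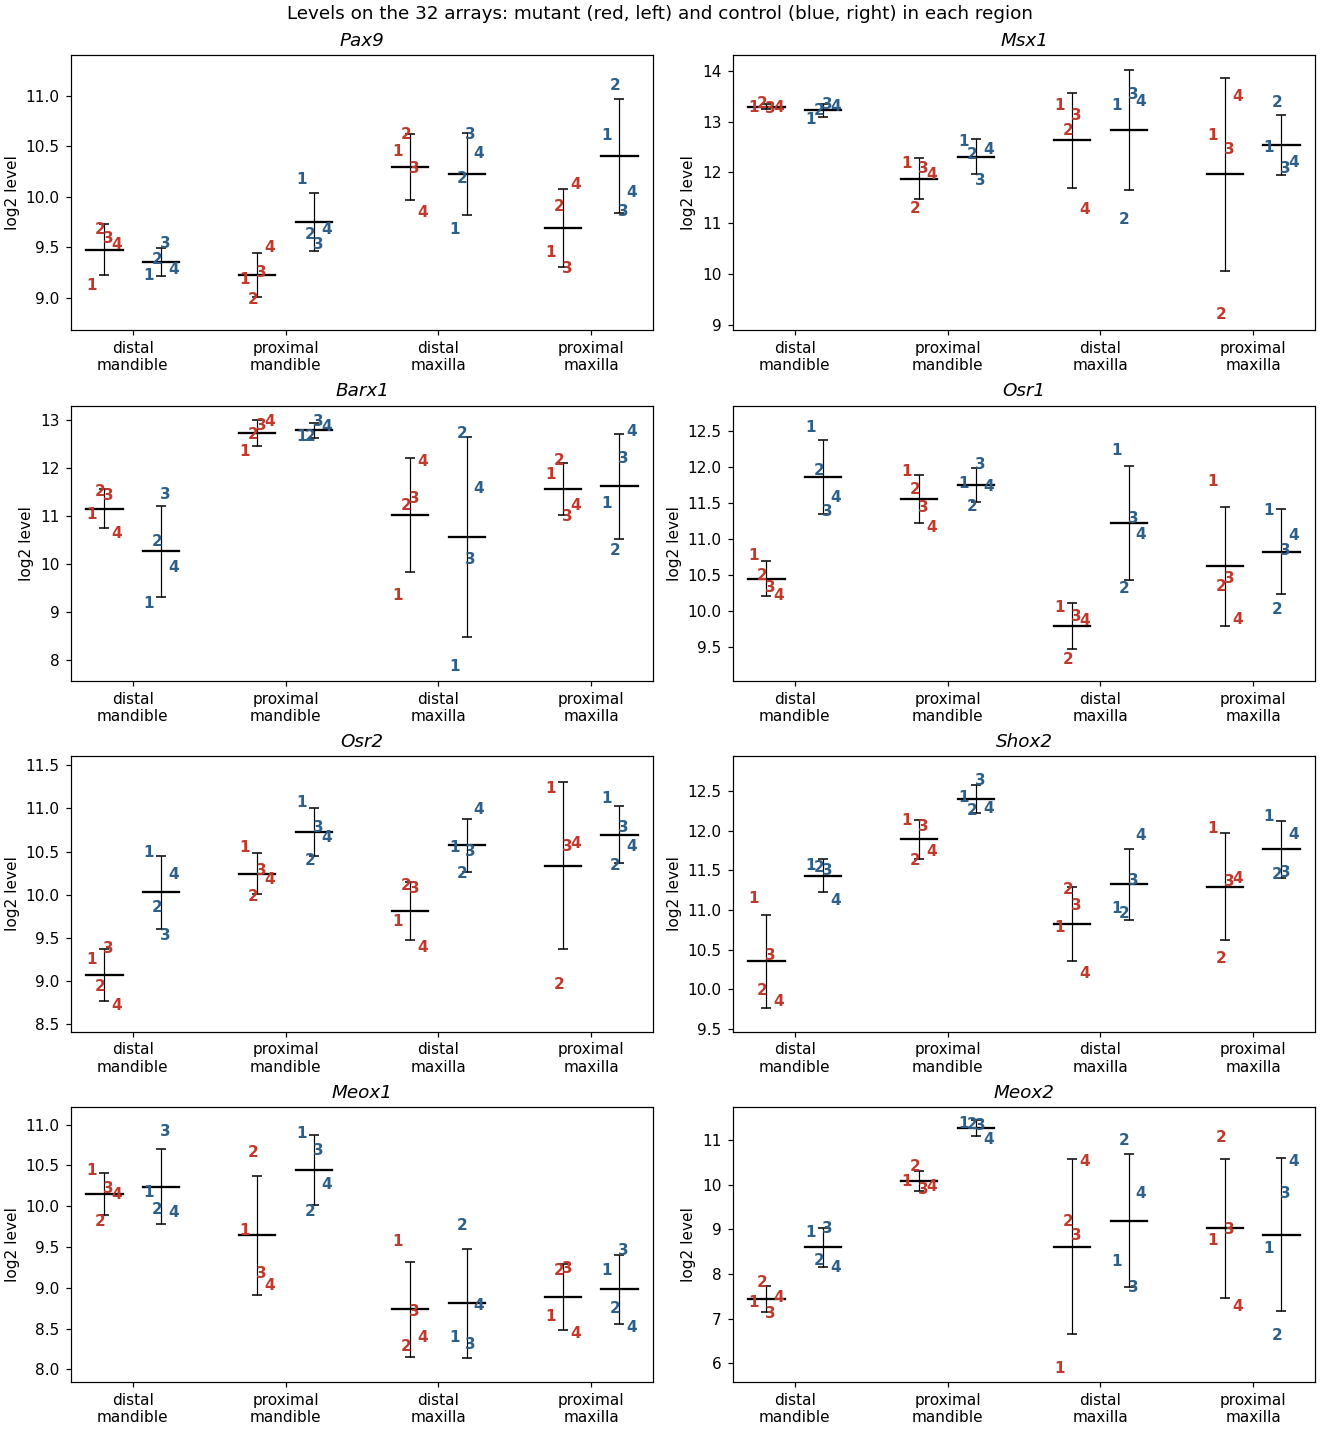
Log2 level (vertical axes) of each factor on every array, with mutant arrays in red left of control arrays in blue for each region; digits are the array numbers, thick lines the group means and bars the SD of 4 arrays. Osr1 on the 4 mutant arrays of the distal mandible sits between 10.21 and 10.77, under all control arrays, and the maxilla panels of Msx1 and Meox2 show wide groups, from 9.20 to 13.54 and from 5.87 to 11.05.

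In the distal mandible, mutants had less transcript of Osr1 and of Shox2, the palate and dental mesenchyme regulators, and no factor passed in the other direction. The 2 of 8 that fell compare with 1.91% of all genes passing in either direction in this comparison, at an adjusted p under 0.05 in limma. Osr1 had 10.77, 10.49, 10.33 and 10.21 on mutant arrays, against 12.56, 11.96, 11.38 and 11.57 on control arrays. Every mutant array lay under every control array. The difference was −1.42 (SE 0.36, adjusted p = 0.0355), 2.67-fold lower in mutants. The call was kept in 3 of 12 fits that left out an array or a number. It was lost without control array 1 or 2, without any 1 of the 4 mutant arrays (adjusted p 0.0506 to 0.159) and without number 2, 3 or 4 (up to 0.294), with differences of −1.19 to −1.54.

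Shox2, the anterior palate factor, stood at 11.15, 9.99, 10.42 and 9.85 on mutant arrays of the distal mandible, against 11.56, 11.54, 11.50 and 11.13 on control arrays. Mutant array 1 was the only one to reach the control range, just above control array 4. Shox2 was 1.08 lower (SE 0.29, adjusted p = 0.0498), a 2.11-fold difference close to the threshold. It was kept in 3 of 12 leave-outs. It missed the threshold without control array 1, 2 or 3, or mutant array 2, 3 or 4 (adjusted p 0.0802 to 0.176), without number 2, 3 or 4 (up to 0.409), and also with no filter on low values (0.0615), with the groups compared fitted alone (0.0782) and with a random block (0.0514). The other probe set of Shox2 differed by −1.46, with every mutant array under every control array.

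Osr2, which the palatal shelves need for growth, had 9.25, 8.94, 9.38 and 8.71 on mutant distal mandible arrays, against 10.48, 9.85, 9.53 and 10.23 on control arrays. The groups did not overlap, yet the difference of −0.96 (SE 0.31) had an adjusted p of 0.109. The lowest control value, 9.53, came from array 3, the array with the large Gapdh 3' minus 5' difference. The other probe set of Osr2 lay under the filter level on all 32 arrays and gives no second reading.

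Meox2 was likewise under every control array in mutants, at 7.36, 7.81, 7.11 and 7.47 on mutant arrays, against 8.92, 8.30, 9.01 and 8.15 on control arrays. Its difference of −1.16 did not pass in the fit over all groups (SE 0.82, adjusted p = 0.522), which takes 1 spread from all 8 groups; the SD of Meox2 was 1.49 to 1.96 in the maxilla groups and 0.17 to 0.43 in the mandible groups. With only the groups compared it was −1.16 with an SE of 0.22 and an adjusted p of 0.0392. With Osr1 and Osr2, 3 of 8 factors had all mutant arrays under all control arrays in the distal mandible, against 8.02% of all genes.

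The remaining 4 factors overlapped between genotypes there. Barx1, the molar mesenchyme factor, differed by 0.89 (SE 0.69, adjusted p = 0.577), with mutant arrays at 10.64 to 11.53 and control arrays at 9.20 to 11.46. Msx1 was high and even, at 13.25 to 13.36 on mutant arrays and 13.04 to 13.33 on control arrays. Pax9 differed by 0.12 (adjusted p = 0.864) and Meox1 by −0.09 (adjusted p = 0.948).

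Markers of other tissues moved in the same comparison, and their part in it was not tested. All 10 skeletal muscle markers lay above 0 (median 1.32), with 0 of 10 passing; their mean level was 9.47 to 10.67 over the mutant arrays, against 7.75 to 9.84 over the control arrays. All 7 measured neuron markers lay below 0, and Stmn2, a neuronal tubulin regulator, fell by 2.49 (adjusted p = 0.00246). Their mean level was 7.77 to 8.05 on mutant arrays, against 8.36 to 8.71 on control arrays. Of 7 macrophage markers 6 lay below 0 and 2 fell, Pf4 (−1.18) and Ptprc (−1.08); their mean level was 8.19 to 8.46 on mutant arrays, against 8.45 to 9.01 on control arrays. Pou3f3, a POU homeodomain factor of the maxillary arch, fell (−1.63), as did its neighbour Pantr1 (−2.82), and the mean of the pair was 9.39 to 9.78 on mutant arrays, against 11.59 to 11.94 on control arrays. The 6 general cranial mesenchyme markers (Prrx1, Prrx2, Twist1, Twist2, Alx4, Pdgfra) had a median of −0.04, with 0 of 6 passing. Below 0 as well lay 7 of 7 measured oral and dental epithelium markers (median −0.249), 5 of 6 cartilage markers (−0.305) and 2 of 2 measured bone markers (−0.715), with 0 passing.

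In the distal maxilla, 0 of 8 factors passed in limma, against 0.788% of all genes, and 2 of 8 had an unadjusted p under 0.05, Osr1 and Osr2, as had 1773 of the 13705 genes. Osr1 had 10.05, 9.32, 9.92 and 9.86 on mutant arrays, against 12.23, 10.31, 11.28 and 11.06 on control arrays. All mutant arrays were under all control arrays, and the difference of −1.43 (SE 0.36, adjusted p = 0.0538) was of about the size found in the distal mandible. Without the 4 arrays that go against their end label it was −1.76 (SE 0.35, adjusted p = 0.0112), and without control array 2 alone it was −1.74 (adjusted p = 0.00961).

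Osr2 showed the same order in the distal maxilla, with 9.69, 10.10, 10.07 and 9.39 on mutant arrays, against 10.54, 10.25, 10.50 and 10.99 on control arrays. The highest mutant array stayed below the lowest control array. The difference was −0.76 (SE 0.31, adjusted p = 0.272), and −0.73 (adjusted p = 0.354) without the 4 arrays. So 2 of 8 factors had all mutant arrays under all control arrays here, against 3.47% of all genes.

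The other 6 overlapped in the distal maxilla. Their differences ran from −0.59 for Meox2 and −0.50 for Shox2 through −0.20 for Msx1, −0.08 for Meox1 and 0.07 for Pax9 to 0.45 for Barx1, with adjusted p-values of 0.512 to 0.956. Without the 4 arrays Meox1 turned to 0.36 and Barx1 was 0.80, and neither passed. Of the marker lists, 9 of 10 muscle markers lay below 0 (median −0.70), 7 of 7 neuron markers above 0 (median 0.85) and 6 of 7 macrophage markers above 0 (median 0.85), with 0 passing in each. All 6 cartilage markers (median −0.383) and 2 of 2 measured bone markers (−0.878) lay below 0, with 0 passing. Erg, an endothelial factor, fell by 1.38 (adjusted p = 0.0413). Their part in the result was not tested.

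In the proximal mandible all 8 factors lay below 0, with a median of −0.50 beside 0.01 for all genes, but 0 of 8 passed in limma, against 1.26% of all genes. An unadjusted p under 0.05 was reached by 2 of 8, Pax9 and Meox1, and by 1628 of the 13705 genes. Meox2, the posterior palate factor, had 10.07, 10.41, 9.89 and 9.96 on mutant arrays, against 11.37, 11.35, 11.33 and 11.01 on control arrays. The gap between the groups was wider than the spread within either. The difference was −1.18 (SE 0.82, adjusted p = 0.646) in the fit over all groups and passed with only the groups compared (SE 0.13, adjusted p = 0.00471).

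Shox2 had 12.13, 11.63, 12.06 and 11.74 on mutant arrays of the proximal mandible, against 12.42, 12.25, 12.64 and 12.28 on control arrays, and the groups did not overlap. It differed by −0.51 (SE 0.29, adjusted p = 0.535). Pax9 had 9.18, 8.98, 9.25 and 9.50 on mutant arrays, against 10.17, 9.63, 9.53 and 9.68 on control arrays. Its groups were also apart, by a narrow margin, with a difference of −0.52 (SE 0.23, adjusted p = 0.362). With Meox2, 3 of 8 factors thus had all mutant arrays under all control arrays, against 5.5% of all genes.

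Meox1 differed by −0.80 (SE 0.35, adjusted p = 0.334) in the proximal mandible, where mutant array 2, at 10.65, lay inside the control range of 9.94 to 10.89 and the other mutant arrays lay at 9.03 to 9.70. Osr1 was nearly level between genotypes there, at 11.17 to 11.94 on mutant arrays and 11.46 to 12.04 on control arrays (−0.19, adjusted p = 0.926). Barx1 was at 12.36 to 12.97 on mutant arrays and 12.66 to 12.99 on control arrays, and Msx1 differed by −0.43 (adjusted p = 0.884). Of the macrophage markers 3 of 7 rose, C1qc by 1.26, C1qa by 1.10 and Adgre1 by 1.04, while 7 of 7 neuron markers lay below 0 with 0 passing. All 7 measured oral and dental epithelium markers lay above 0 (median 0.391) and 2 of 2 measured bone markers below 0 (median −1.53), with 0 passing. The part of these markers in the differences was not tested.

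In the proximal maxilla 0 of 8 factors passed in limma, against 0.0657% of all genes, and 1 of 8 had an unadjusted p under 0.05, as had 672 of the 13705 genes. That factor was Pax9, with 9.45, 9.90, 9.29 and 10.13 on mutant arrays, against 10.61, 11.10, 9.86 and 10.04 on control arrays. Mutant arrays 2 and 4 lay within the control range. The difference was −0.71 (SE 0.23, adjusted p = 0.45), and −0.62 (adjusted p = 0.718) without the 4 arrays. None of the 8 had all mutant arrays under all control arrays, where 1.08% of all genes did. The widest spread was that of Msx1 on mutant arrays, from 9.20 on array 2 to 13.49 on array 4, one of the arrays that go against their label. Macrophage markers lay above 0 in 6 of 7 cases (median 1.06), muscle markers in 9 of 10 (median 0.64) and neuron markers in 0 of 7 (median −0.59), with 0 passing in each. All 6 cartilage markers (median −0.489) and 2 of 2 measured bone markers (−0.346) lay below 0, with 0 passing. The part of these markers was not tested.

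**Figure D2:**
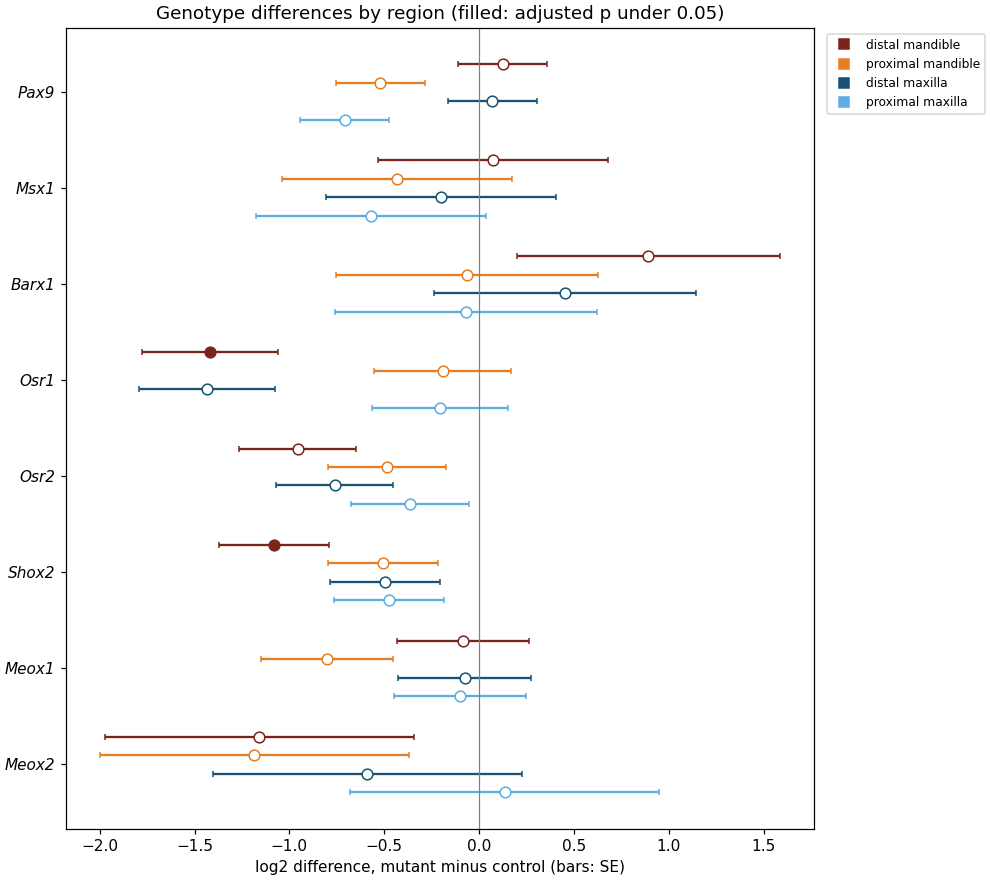
Log2 difference between mutant and control (horizontal axis, mutant minus control) of each factor in the 4 regions, with bars of 1 SE; filled points have an adjusted p under 0.05. The filled points are Osr1 (−1.42) and Shox2 (−1.08) in the distal mandible, and the Osr1 point of the distal maxilla (−1.43) lies beside them unfilled.

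Averaged over the 4 regions, 7 of 8 factors were lower in mutants and Barx1 was higher, and 0 of 8 passed in limma against 1.37% of all genes. An unadjusted p under 0.05 was reached by 5 of 8 and by 1924 of the 13705 genes. The differences were −0.81 for Osr1 (SE 0.24, adjusted p = 0.164), −0.64 for Osr2 (SE 0.18, adjusted p = 0.134) and −0.64 for Shox2 (SE 0.16, adjusted p = 0.108). Meox2 differed by −0.70 (SE 0.30, adjusted p = 0.343) and Pax9 by −0.26 (SE 0.07, adjusted p = 0.150). The array numbers deviated together between genotypes here, and the cause was not tested. With the number as a block 2 of 8 fell, Osr1 (adjusted p = 0.0259) and Osr2 (adjusted p = 0.038). Without number 1, the number apart on the Cre spike-in, Osr1 and Shox2 passed in limma (adjusted p = 0.0183 and 0.0203).

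Whether a genotype difference itself differed between jaws or ends was tested with interaction terms, and 0 of 8 factors passed in each of the 4. All genes passed at 0.102% for the jaws at the distal end and 0.0073% at the proximal end, and at 0.0219% for the ends of the mandible and 0.0584% for those of the maxilla. An unadjusted p under 0.05 was found for 0 and 0 of 8 factors in the terms for the jaws, for 1 of 8 in the mandible and for 2 of 8 in the maxilla; over all genes there were 1001 and 298 for the jaws at the distal and the proximal end, 581 in the mandible and 655 in the maxilla. For Osr1, the genotype difference was lower at the distal than at the proximal end by 1.23 in the mandible (SE 0.51, adjusted p = 0.999) and by 1.23 in the maxilla (SE 0.51, adjusted p = 0.891), where the term was −1.53 without the 4 arrays, with no test. For Osr1 between the jaws at the distal end the term was 0.02 (SE 0.51), and 0.34 (SE 0.46, adjusted p = 0.852) without the 4 arrays. The Osr1 difference was therefore not shown to differ between ends, although its size was −1.42 and −1.43 at the distal ends and −0.19 and −0.21 at the proximal ends.

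Partners of these factors were followed from 2 lists. Among 20 tooth mesenchyme partners, 16 were measured, and 1 fell in the proximal mandible, Inhba, the activin subunit that dental mesenchyme signals with (−1.27, SE 0.21, adjusted p = 0.00159); 0 passed in the other 3 regions. Their medians were −0.01 in the distal mandible, −0.12 in the proximal mandible, −0.34 in the distal maxilla, where 15 of 16 lay below 0, and 0.03 in the proximal maxilla. Among 23 palate mesenchyme partners, 21 were measured, and Bmp2, a bone morphogenetic protein ligand, was the 1 that fell in the distal mandible (−1.19, adjusted p = 0.000987), the proximal mandible (−0.87, adjusted p = 0.016), the distal maxilla (−0.93, adjusted p = 0.018) and on average (−0.72, adjusted p = 0.0265). Medians of this list were −0.06, −0.14, −0.18 and −0.06 in the distal mandible, proximal mandible, distal maxilla and proximal maxilla, against −0.03, 0.01, −0.03 and 0.02 for all genes.

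Genes of the TGF-beta and BMP pathways changed in few places. Of 21 TGF-beta and BMP genes, all measured, 2 rose and 2 fell in the proximal mandible: the type I receptor Bmpr1b rose by 1.41 (adjusted p = 0.0207) and the type II receptor Acvr2b by 0.71 (adjusted p = 0.0318), and the type I receptor Acvr1 fell by 0.56 (adjusted p = 0.00618) beside Bmp2. In the distal mandible 1 rose, Tgfbr1 itself (0.28, adjusted p = 0.0411), read by a probe set that may lie outside the deleted part, and 1 fell, Bmp2. In the distal maxilla Tgfbr1 rose (0.41, adjusted p = 0.00477) and 2 fell, Bmp2 and Acvr1 (−0.45, adjusted p = 0.0478). The proximal maxilla had 0 of 21.

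Between the jaws, the mean of Meox1 was higher in the mandible in all 4 comparisons. It passed in 3 of the 4, the exception being proximal mutant tissue. At the distal end of mutants it had 10.44, 9.82, 10.22 and 10.14 on mandible arrays, against 9.56, 8.29, 8.70 and 8.39 on maxilla arrays. All mandible arrays were above all maxilla arrays. Meox1 was higher in the mandible by 1.42 (SE 0.35, adjusted p = 0.00668), 2.67-fold, and without the 4 arrays by 1.30 (adjusted p = 0.0156). It missed the threshold only when number 4 was left out (adjusted p = 0.0729).

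Controls showed a difference of the same size. At the distal end Meox1 had 10.17, 9.95, 10.92 and 9.92 on control mandible arrays, against 8.39, 9.77, 8.31 and 8.78 on control maxilla arrays. The groups did not overlap, although maxilla array 2, one of those that go against their end label, came close. The difference was 1.43 (SE 0.35, adjusted p = 0.0285), and 1.75 (adjusted p = 0.00855) without the 4 arrays. The call was lost with only the groups compared (adjusted p = 0.158), and when mandible array 3 or maxilla array 1, 3 or 4 was left out (0.0718 to 0.141). Mandible array 3, the highest at 10.92, was the array with the large Gapdh 3' minus 5' difference. Leaving out number 1, 3 or 4 ended the call too (up to 0.532, with a difference of 1.04), so 5 of 12 leave-outs kept it.

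At the proximal end Meox1 had 10.89, 9.94, 10.68 and 10.26 on control mandible arrays, against 9.21, 8.75, 9.45 and 8.52 on control maxilla arrays. The groups were well apart, with a difference of 1.46 (SE 0.35, adjusted p = 0.00976), and 1.38 (adjusted p = 0.0187) without the 4 arrays. Leaving out number 1, 3 or 4 ended this call (0.0537 to 0.0885). In mutants the proximal ends overlapped, at 9.03 to 10.65 on mandible arrays and 8.44 to 9.23 on maxilla arrays, and the difference of 0.76 did not pass (SE 0.35, adjusted p = 0.391), nor did 0.61 without the 4 arrays (adjusted p = 0.603). The change of this difference with genotype was −0.70 (SE 0.49, adjusted p = 0.9996), so it was not shown to differ between genotypes.

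Muscle markers also differed between the jaws in the direction of Meox1. In the distal mutant comparison 9 of 10 lay above 0 and 8 rose (median 2.72), in the proximal control comparison 10 of 10 lay above 0 and 6 rose (median 2.75), and in the proximal mutant comparison 9 of 10 lay above 0 and 1 rose (median 2.19). In the distal control comparison 8 of 10 lay above 0 (median 0.42), 0 rose and 1 fell.

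Neuron markers ran with Pax9, lower in the mandible. Of 7 measured, 5 fell in distal mutant tissue (median −3.30), 5 in proximal mutant tissue (−2.10), 3 in distal control tissue (−0.74) and 5 in proximal control tissue (−2.12). At the distal end of mutants their mean level was 7.77 to 8.05 on mandible arrays, against 10.25 to 11.25 on maxilla arrays. There 6 of 7 macrophage markers fell as well (median −1.24), with a mean level of 8.19 to 8.46 on mandible arrays, against 8.61 to 9.97 on maxilla arrays; in the other 3 jaw comparisons 0 of 7 passed. Both measured Schwann cell markers also fell in distal mutant tissue (median −0.99). Of 7 measured oral and dental epithelium markers, 2 fell in distal mutant tissue (median 0.65) and 1 in proximal mutant tissue (0.20). In controls 1 fell in distal tissue (0.63) and 2 in proximal tissue (−0.39), and 0 rose in any of the 4. The part of muscle, neuron, macrophage, Schwann cell and epithelium markers in the Meox1 and Pax9 differences was not tested.

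Pax9 ran the other way. At the distal end of mutants it had 9.12, 9.68, 9.59 and 9.53 on mandible arrays, against 10.45, 10.61, 10.28 and 9.85 on maxilla arrays. All mandible arrays lay under all maxilla arrays, and Pax9 was lower in the mandible by 0.82 (SE 0.23, adjusted p = 0.0188), 1.76-fold, or by 0.97 without the 4 arrays (adjusted p = 0.00353). Leaving out mandible array 1 (adjusted p = 0.0739) or maxilla array 2 (0.0625) ended the call, as did leaving out number 1, 2 or 3 (0.0595 to 0.105).

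In controls Pax9 at the distal end had 9.22, 9.38, 9.54 and 9.28 on mandible arrays, against 9.68, 10.19, 10.62 and 10.42 on maxilla arrays. The groups were again apart. The difference was −0.87 (SE 0.23, adjusted p = 0.0588), and it passed without the 4 arrays (−0.89, adjusted p = 0.0338). At the proximal end the differences were −0.46 in mutants (adjusted p = 0.49) and −0.65 in controls (adjusted p = 0.123), and the groups overlapped; without the 4 arrays they were −0.32 (adjusted p = 0.719) in mutants and −0.42 (adjusted p = 0.38) in controls. The other probe sets of Pax9 gave −1.07 and −0.84 at the distal end of mutants and −1.30 and −0.93 at the distal end of controls.

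At the distal end of mutants 2 of 8 factors passed between jaws, Meox1 up and Pax9 down, against 13.7% of all genes. At the distal end of controls 1 of 8 passed, Meox1, against 1.47% of all genes. At the proximal end 0 of 8 passed in mutants in limma (2 of 8 with an unadjusted p under 0.05, and 1520 of the 13705 genes), against 3.06% of all genes, and 1 of 8 in controls, Meox1, against 5.4%. Set against 13.7% of all genes, 2 of 8 at the distal end of mutants is no result about these factors.

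The other 6 factors did not pass between jaws. Osr1 leaned to the mandible in all 4 comparisons, by 0.66, 0.94, 0.65 and 0.92 in distal mutant, proximal mutant, distal control and proximal control tissue, with adjusted p-values of 0.168 to 0.601. Arrays of the same number deviated together in the proximal mutant comparison, a pairing seen in the data and not given by the labels. With a block Osr1 passed there (SE 0.27, adjusted p = 0.0499), and without the 4 arrays the difference there was 0.69 (adjusted p = 0.405). Without them Osr1 differed by 0.68, 0.34 and 0.65 in distal mutant, distal control and proximal control tissue, and none of these passed. Meox2 differed by 2.38 in proximal control tissue (SE 0.82, adjusted p = 0.0964), with mandible arrays at 11.01 to 11.37 and maxilla arrays at 6.63 to 10.52. Without the 4 arrays this was 1.63 (adjusted p = 0.168). Barx1 was higher in the proximal mandible by 1.17 in mutants (adjusted p = 0.653) and by 1.16 in controls (adjusted p = 0.47), and by 1.06 and 0.72 without the 4 arrays.

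**Figure D3:**
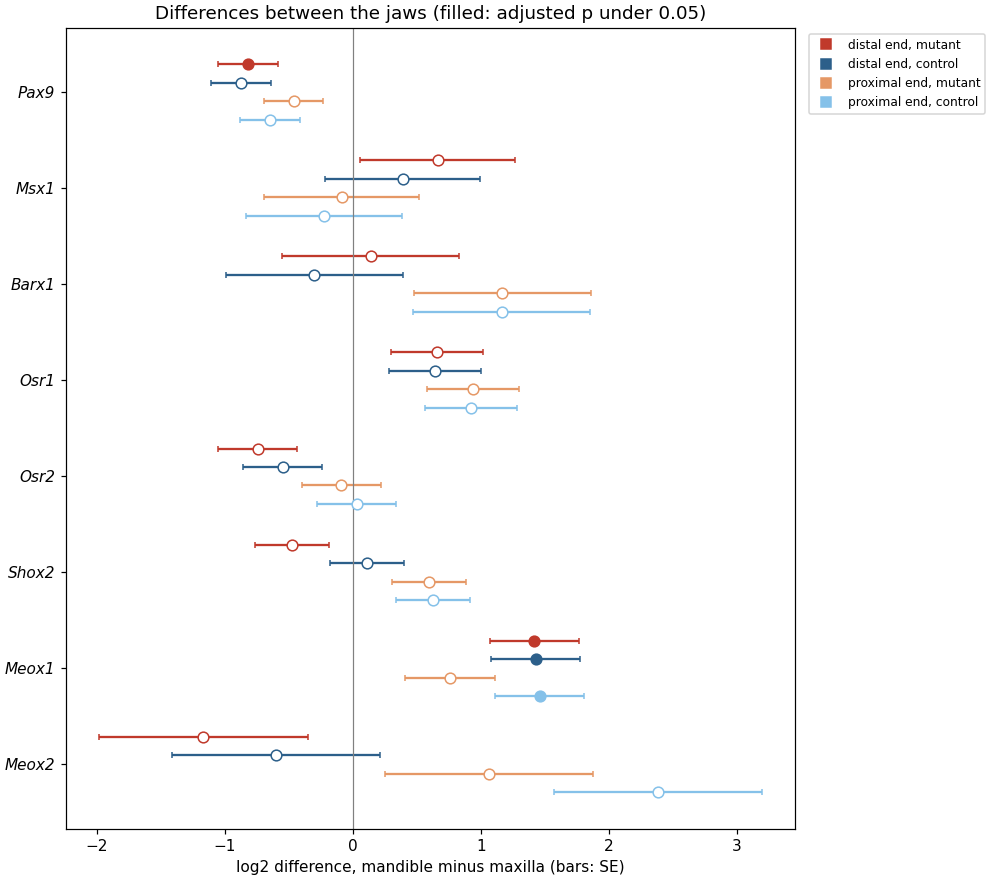
Log2 difference between jaws (horizontal axis, mandible minus maxilla) of each factor at the distal and proximal end in mutants and controls, with bars of 1 SE; filled points have an adjusted p under 0.05. Meox1 lies right of 0 in all 4 comparisons (0.76 to 1.46) and Pax9 left of 0 in all 4 (−0.46 to −0.87).

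Between the ends of the mandible, Shox2 and Osr2 passed in mutants and Barx1 in controls, each lower at the distal end. These were 2 of 8 factors in mutants at an adjusted p under 0.05, against 5.03% of all genes. In controls it was 1 of 8, against 4.84% of all genes. All distal arrays lay under all proximal arrays for 5 of 8 factors in mutants, against 12.4% of all genes, and for 3 of 8 in controls, against 5.81%. Meox2 and Msx1 did not pass in the fit over all groups in either genotype, although their ends did not overlap.

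Barx1 had 9.20, 10.48, 11.46 and 9.94 on control distal arrays of the mandible, against 12.66, 12.67, 12.99 and 12.86 on control proximal arrays. The distal arrays were all lower and widely spread, while the proximal arrays were close together. The difference was −2.52 (SE 0.69, adjusted p = 0.0311), 5.75-fold. Distal array 3, the highest at 11.46, was the array with the large Gapdh 3' minus 5' difference. Without it the call was kept (adjusted p = 0.0239). The call was lost without any 1 of the other 7 arrays (0.0524 to 0.0894) and without number 2, 3 or 4 (up to 0.185). Differences in these fits were −2.17 to −2.86. In mutants Barx1 had 11.05, 11.53, 11.44 and 10.64 on distal arrays, against 12.36, 12.70, 12.90 and 12.97 on proximal arrays, without overlap, and the difference of −1.57 (SE 0.69) had an adjusted p of 0.256.

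Shox2 in the mutant mandible had the distal values given above, 9.85 to 11.15, against 12.13, 11.63, 12.06 and 11.74 on proximal arrays. All distal arrays were lower. The difference was −1.54 (SE 0.29, adjusted p = 0.00136), 2.90-fold, and it missed the threshold only without number 3 (adjusted p = 0.0612). In controls the distal arrays, at 11.13 to 11.56, also lay under the proximal arrays, at 12.25 to 12.64, with a difference of −0.96 (SE 0.29, adjusted p = 0.0538). Without the 4 maxilla arrays, set aside for their order of the ends, the adjusted p was 0.0419, which adds no support.

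Osr2 had 8.71 to 9.38 on mutant distal arrays of the mandible, against 10.55, 9.98, 10.28 and 10.17 on mutant proximal arrays, again without overlap. It was lower by 1.17 (SE 0.31, adjusted p = 0.0217), and the call was lost without distal array 2 or 4 or proximal array 1 or 3 (0.057 to 0.0893) and without number 1, 3 or 4 (up to 0.174). In controls the ends overlapped, at 9.53 to 10.48 in distal and 10.39 to 11.07 in proximal tissue (−0.70, SE 0.31, adjusted p = 0.24). Osr1 differed between ends in mutants by −1.11 (SE 0.36, adjusted p = 0.0761), with all distal arrays lower. There too arrays of the same number deviated together in the data, and the block gave an adjusted p of 0.0127. In controls the Osr1 difference was 0.12 (adjusted p = 0.953).

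Meox2 was far lower at the distal end in both genotypes. Mutants had 7.11 to 7.81 on distal arrays and 9.89 to 10.41 on proximal arrays, and controls had 8.15 to 9.01 on distal arrays and 11.01 to 11.37 on proximal arrays. The differences were −2.65 (SE 0.82, adjusted p = 0.0582) in mutants, 6.26-fold, and −2.67 (adjusted p = 0.0567) in controls, 6.37-fold. Without the 4 maxilla arrays, whose spread enters the fit, the SE was 0.58 and the adjusted p was 0.00497 in mutants and 0.00508 in controls. Those arrays were set aside for their order of the ends and hold wide-apart Meox2 values, so the lower SE adds no support. Both differences passed with only the groups compared (2.72e-05 and 0.00054) and with a random block (0.0347 and 0.0334).

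Msx1, the distal and incisor-side factor, was the 1 of the 8 with all distal arrays above all proximal arrays in the mandible of both genotypes. Of all genes 5.62% had that order in mutants and 5.38% in controls. Msx1 had 13.25 to 13.36 on mutant distal arrays and 11.29 to 12.18 on mutant proximal arrays, and 13.04 to 13.33 on control distal arrays and 11.83 to 12.61 on control proximal arrays. The differences were 1.42 (SE 0.61, adjusted p = 0.236) in mutants and 0.91 (SE 0.61, adjusted p = 0.523) in controls. With only the groups compared both passed (adjusted p = 0.001 in mutants and 0.0144 in controls). The other probe set gave 2.00 in mutants and 1.28 in controls. Pax9 and Meox1 overlapped between the ends in both genotypes, with differences of 0.25 and 0.51 in mutants and −0.40 and −0.20 in controls.

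Skeletal muscle markers moved with the ends too, 10 of 10 below 0 at the distal end in mutants (median −0.82, 0 passing) and 10 of 10 in controls (median −2.30, 3 falling). Macrophage markers fell at the distal end of the mutant mandible in 6 of 7 cases (median −1.33), with a mean level of 8.19 to 8.46 on distal arrays, against 9.43 to 9.58 on proximal arrays; in controls 0 of 7 passed (median −0.13). Also lower at the distal end in mutants were 2 of 6 cartilage markers (median −0.76), 1 of 7 neuron markers and 1 of 2 Schwann cell markers, and in controls 1 of 7 neuron markers. Pou3f3 and Pantr1 both fell at the distal end in mutants (median −1.35), and neither passed in controls (median 0.28). In the direction of Msx1, 2 of 7 oral and dental epithelium markers rose at the distal end in controls (median 0.90). In mutants 0 of 7 passed (median 0.31). The part of these markers in the end differences was not tested.

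In the maxilla 0 of 8 factors passed between ends in limma in either genotype, and 0% of all genes passed in mutants and 0% in controls, where 555 and 405 genes had an unadjusted p under 0.05. Of the 8 factors, 2 in mutants and 0 in controls had such a p. Msx1 showed what the 4 arrays do: mutant number 4 had 11.26 on its distal array and 13.49 on its proximal array, and control number 2 had 11.07 on its distal array and 13.38 on its proximal array. In the other 6 pairs of the maxilla the distal array was the higher one, as in all 8 pairs of the mandible.

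Meox2 mirrored this. Mutant number 4 had 10.52 on its distal and 7.28 on its proximal maxilla array, and control number 2 had 11.00 on its distal and 6.63 on its proximal array. The value of 6.63 lay under the filter level. In the other 6 pairs the distal array was lower (differences of −0.15 to −2.87). Barx1 was higher on the distal array in mutant number 4 and control number 2, but also in mutant number 3 (by 0.38), which follows its end label by the score. With all arrays the distal minus proximal difference of Msx1 was 0.66 in mutants and 0.30 in controls, and without the 4 arrays it was 1.63 in mutants and 1.16 in controls. For Meox2 it was −0.41 in mutants and 0.31 in controls with all arrays, and −1.63 in mutants and −1.04 in controls without the 4. For Barx1 it was −0.54 in mutants and −1.06 in controls with all arrays, and −1.02 in mutants and −2.22 in controls without them. These values without the 4 arrays carry no test, since arrays were set aside for their order of the ends.

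**Figure D4:**
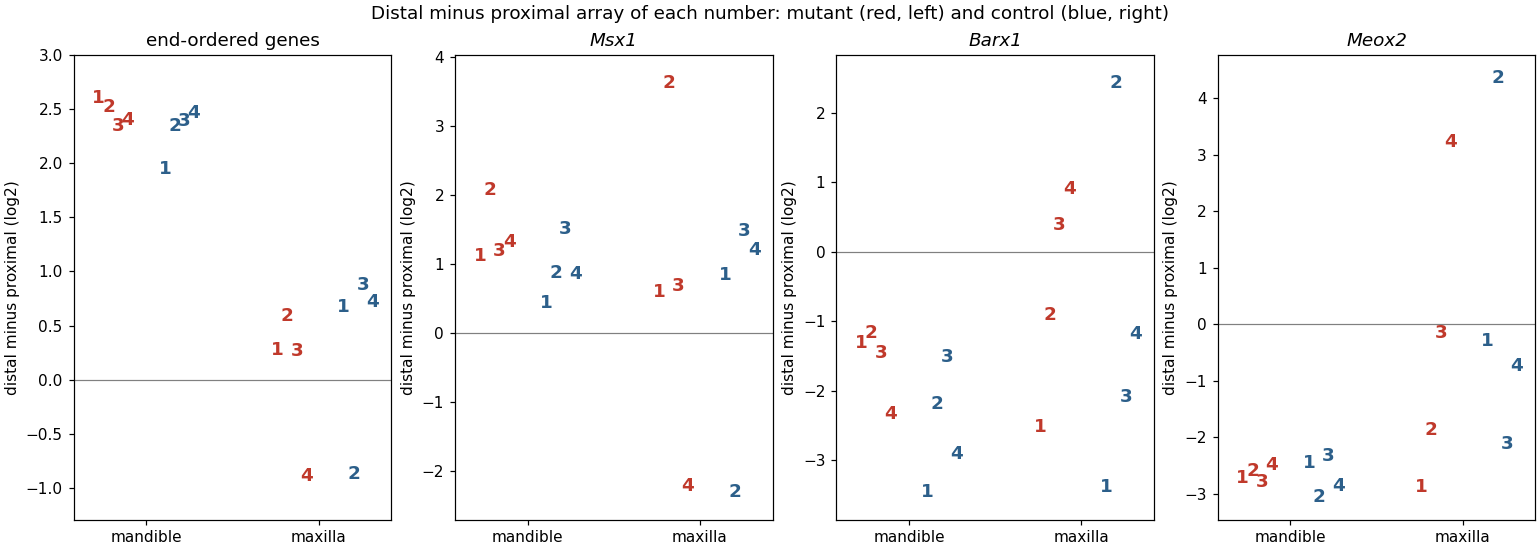
Distal minus proximal array of the same number (vertical axes, log2) for the score of end-ordered genes and for Msx1, Barx1 and Meox2, with mutants in red left of controls in blue; digits are the array numbers. In the maxilla the score is −0.89 for mutant number 4 and −0.87 for control number 2, and the same pairs have Msx1 below 0 and Meox2 above 0.

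Over the 32 arrays, which share genotype, region and number, each factor had near neighbours in pattern, given here as Pearson correlations without a test. Osr2 and Shox2 were among each other's 3 closest genes (r = 0.82), and their correlation was 0.91 over the 16 mandible arrays and 0.91 over the 16 maxilla arrays, or 0.90 over 12 maxilla arrays without the 4. Barx1 followed Meox2 (r = 0.73 over 32 arrays), and Msx1 ran opposite to Meox2 (r = −0.71; −0.66 over the 12 maxilla arrays). Within the 8 distal mandible arrays Barx1 and Meox2 had an r of −0.44, and Msx1 and Barx1, at −0.58 over all arrays, had 0.79. Pax9 and Meox1 ran opposite over the 32 arrays (r = −0.51) but not within the 16 mandible arrays (0.23) or the 16 maxilla arrays (−0.08).

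The genes closest to each factor were Clic6, Tmem30b and Ermn for Pax9 (r = 0.82 to 0.80), Cachd1, Dkk1 and Krt14 for Msx1 (0.91 to 0.90), and Csrp2, Dlx1 and Pkdcc for Barx1 (0.89 to 0.85). Osr1 was followed by Man2a1, Atrnl1 and Zfp503 (0.87 to 0.83), Osr2 after Shox2 by Ttpal and Egfl6 (0.80 and 0.79), and Shox2 by Smoc2 (0.85) and, after Osr2, Zcchc24 (0.80). Meox1 was closest to Itm2a, Klf14 and Pamr1 (0.83 to 0.79), and Meox2 to Corin, Sim2 and Armcx3 (0.91 to 0.87). The correlations of Msx1 and Meox2 were the highest of the 8, and both genes have the wide spread over ends and arrays described above.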

How the data were processed

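RNA from 32 samples was hybridised to Affymetrix arrays, and the deposited values are log2 signals from the authors' RMA, per the labels and the submitters' processing notes (version not stated). RMA compresses differences at low signal, and with 4 arrays a group small differences cannot be resolved. Of 45101 probe sets, 34945 had 1 gene symbol, 932 several and 9160 none, and 64 were controls. RefSeq (GRCm38.p6) matched 34741 by Entrez ID, and 0 symbols changed. Probe sets above an array's percentile 40 on at least 4 arrays were kept, and the one with the highest mean stood for its gene, leaving 13705 genes. limma 3.58.1 in R 4.3.3 was fitted with 1 mean per group (24 residual degrees of freedom), and for the average over regions on set means (6). p-values were adjusted by Benjamini-Hochberg over all genes, with a threshold of 0.05. The code was tested on simulated data.

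All 8 factors, Tgfbr1, list genes that passed a genotype comparison (up to 4 a list, by adjusted p) and the 3 genes most correlated with each factor are named. The factors and lists were chosen with earlier results of these data known. Array numbers were checked for pairing: every pair correlated above 0.1 for the average genotype effect (lowest 0.201), the ends of the mutant mandible (0.186) and the jaws in proximal mutant tissue (0.196), from the data and not from the labels. Alternatives were no filter, the mean of probe sets, repeated quantile normalization, only the groups compared, a replicate block, a random block (correlation 0.202) and leaving out each replicate; leaving out the 4 maxilla arrays was added after the data were seen.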

Additional observations from a re-analysis of the deposited data

Results flagged for a closer look

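Of 64 groups of 4 arrays, 3 had an array far from the other 3; chance gives about 1 in 20 groups. Msx1 stood at 11.07 on control distal maxilla array 2, where the next array had 13.32 and the highest 13.54; this is one of the arrays that go against their end label. Shox2 stood at 11.13 on control distal mandible array 4, against 11.50 on the next array and 11.56 on the highest. Meox2 stood at 11.01 on control proximal mandible array 4, against 11.33 on the next array and 11.37 on the highest. No cause was tested for any of the 3.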

How the results depend on the processing

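No called difference turned its direction under any alternative run. Of the 8 factors, 2 passed between genotypes in the distal mandible, 1 with no filter, 1 with a random block, 3 with the replicate block (Osr2 added, adjusted p = 0.0388) and 0 to 2 when replicates were left out; with only the groups compared the 2 were Osr1 and Meox2. The proximal mandible had 0, and 1 with only the groups compared. The distal maxilla had 0, but 1 with a replicate block, 1 with a random block, 1 without the 4 arrays and 0 to 1 in leave-outs. The average had 0, 2 with the replicate block and 0 to 2 in leave-outs. Between jaws, distal mutant tissue had 2 (1 to 2 in leave-outs), and proximal mutant tissue 0, 1 with the block and 0 to 1 in leave-outs. Distal control tissue had 1, 2 with the mean of probe sets, 0 with only the groups compared, 2 with a random block, 2 without the 4 arrays and 0 to 1 in leave-outs. Proximal control tissue had 1, 2 with the block and 0 to 2 in leave-outs. Between ends, the mutant mandible had 2, 3 with the block (Osr1 added), 3 with the mean of probe sets (Meox2 added), 6 with only the groups compared, 4 with a random block, 4 without the 4 arrays and 0 to 2 in leave-outs. The control mandible had 1, 2 with the mean of probe sets, 4 with only the groups compared, 2 with the block, 3 with a random block, 3 without the 4 arrays and 0 to 1 in leave-outs. The 4 arrays were chosen by their order of the ends, so counts between ends without them add no support. The cause of these shifts in counts was not tested. Counts over all genes also moved. In the distal mandible 262 became 729 with the replicate block, in the proximal mandible 172 became 478, in the distal maxilla 108 became 315, and on average 188 became 388; with only the groups compared the distal maxilla had 2. Leave-outs gave 33 to 351, 33 to 198, 3 to 328 and 1 to 939 for these 4. With 4 arrays a group and RMA signals, differences of low genes are understated.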
